A study of Citrus junos with 4 samples.

Results

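The genes described here encode the proteins that capture light and carry out the first photochemistry of photosynthesis in mature leaves of Ziyang xiangcheng (*Citrus junos*), a citrus rootstock. They were chosen by their descriptions in the deposited expression table. Every gene described as a chlorophyll a-b binding protein, as a photosystem protein or as an oxygen-evolving enhancer protein was taken, which gave 52 of the 29406 genes. By role, 15 genes belonged to the light harvesting antenna, 11 to the core of photosystem I and 9 to the core of photosystem II. A further 5 genes encoded oxygen-evolving proteins and 5 encoded assembly or stability factors. The remaining 7 genes had descriptions that name a photosystem without one of these roles.

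Leaves of diploid seedlings (2×) were compared with those of doubled diploid seedlings (4×), which had arisen by genome doubling of the same 2× genotype. Each ploidy was represented by 2 libraries, named 2×-1, 2×-2, 4×-1 and 4×-2, and each library was made from leaves pooled from 4 plants. All plants were untreated seedlings, and leaf age was 3 to 5 months at a position near the plant top. Messenger RNA was enriched on oligo(dT) beads, and reads were aligned to the genome of a related species, sweet orange (*Citrus sinensis*).

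In the thylakoid membrane of the chloroplast, antenna proteins bind chlorophyll and pass the absorbed energy to the reaction centers. Photosystem II uses this energy to take electrons from water at its oxygen-evolving complex, and photosystem I lifts the electrons further so that they can reduce ferredoxin. Most antenna proteins and small subunits are encoded in the nucleus, whereas the large reaction center proteins, such as PsaA of photosystem I and D2 of photosystem II, are encoded in the plastid genome. Messenger RNAs of the nuclear genes are among the most abundant in green leaves.

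Expression is given in RPKM (reads scaled to the length of the gene and to the mapped reads of the library), which allows levels to be compared between genes of different length. The 52 genes together took 3.15% of all RPKM in 2×-1, 3.97% in 2×-2, 3.80% in 4×-1 and 3.82% in 4×-2. These shares rested on 209065, 273578, 263377 and 243042 reads recovered from the RPKM values, in the same order, of library totals between 8874306 and 9545185 reads. The share was thus lowest in 2×-1, while the other 2× library had the highest share of all.

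Of the 52 genes, 44 had a value above 0 and 41 reached the mean of 1 RPKM that was required for the test. The 3 genes that were detected below this level were an antenna gene named protein 4 (Cs5g10800), an antenna gene named after Lhca4 (Cs1g14270) and a gene of the photosystem I subunit PsaN (Cs1g09180). The table listed 8 genes at 0 in all 4 libraries. These were 3 of the 4 genes described as the assembly factor HCF136, 2 of the 4 genes of PsbP-domain proteins, and the only genes named PsbP, the second protein of the oxygen-evolving complex, and PsbX, a small subunit of photosystem II, together with the other PsaN gene. Over all 29406 genes, 5333 were at 0 in all 4 libraries. PsbP is a regular part of plant photosystem II, and the reason for the value of 0 of its gene was not tested.

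None of the 41 tested genes differed between 4× and 2× at an adjusted p below 0.05 (limma on log2(RPKM + 0.5), Benjamini-Hochberg adjustment over all genes tested). Over all 16157 genes tested, 1.39% passed this threshold, 0.396% with higher and 0.99% with lower expression in 4×, so a count of 0 among 41 genes does not set them apart from all genes. At an unadjusted p below 0.05 there were 9 photosystem genes with higher and 2 with lower values in 4×, where 5.14% and 8.16% of all genes met the same criterion. With voom, another weighting within limma that uses the recovered reads, 2 of the 41 genes passed, both with higher expression in 4×, where 2.5% of all genes passed and 0.873% passed with higher expression.

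The directions of the fitted differences were uneven. The fitted difference was above 0, that is higher in 4×, for 37 of the 41 genes, against 44.4% of all genes tested. Both 4× libraries lay above both 2× libraries for 20 genes (17.5% of all genes) and below them for 3 genes (26.2% of all genes), and the groups overlapped for 18. The median log2 difference of the 41 genes was 0.25, beside -0.027 for all genes, and the median SE of a single gene was 0.16.

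Much of this direction followed 1 library. In 36 of the 41 genes 2×-1 was the lowest of the 4 libraries, which was true for 19.4% of all genes. Relative to the mean of the other 3 libraries, 2×-1 had a median of -0.39 log2 units over the 41 genes and 0.049 over all genes, whereas the same measure was 0.11 for 2×-2, 0.19 for 4×-1 and 0.13 for 4×-2. Without 2×-1 the median log2 difference between 4× and 2× was 0.036, beside -0.012 for all genes. The fitted difference was then above 0 for 27 of the 41 genes and for 7678 of all 16157 genes. Both 4× libraries lay above 2×-2 for 20 of the 41 genes and below it for 11, beside 5370 and 6034 of all genes. Without 2×-2 the median of the 41 genes was 0.42. With 1 library left in a group, that library was assumed to vary like the other group. The depth of 2×-1 was 9324856 reads, between those of the other libraries, and its median-of-ratios size factor over all genes was 1.02, against 0.985 to 0.998 for the others.

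**Figure D1:**
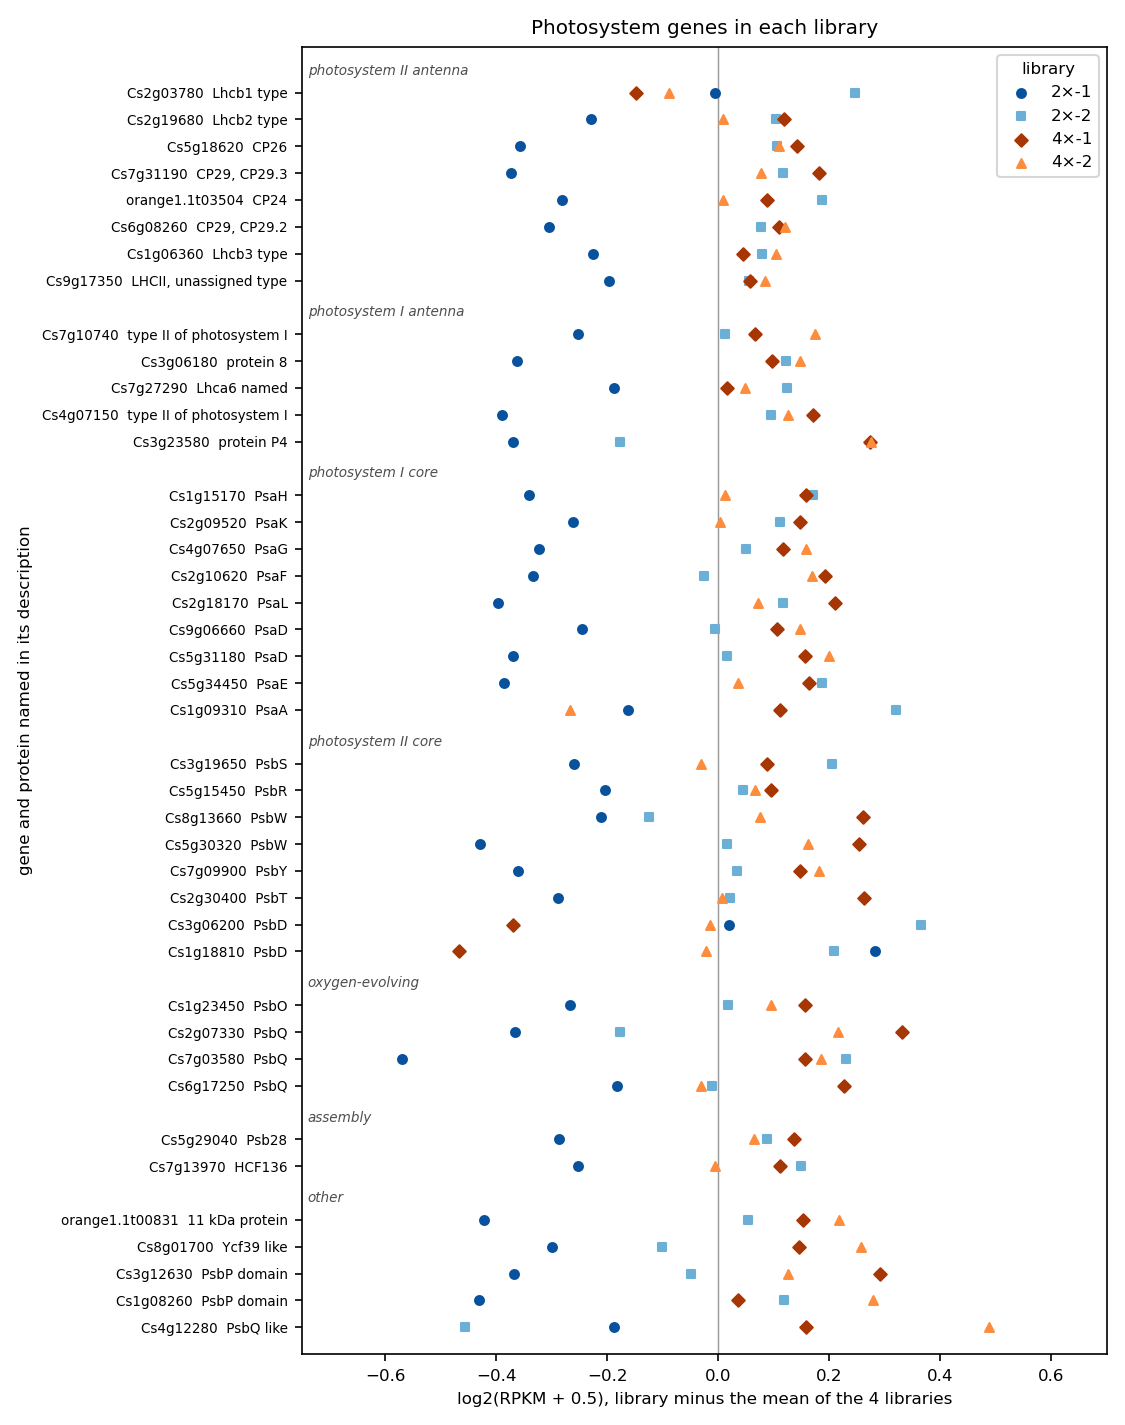
Expression of the 41 tested photosystem genes in each library, as log2(RPKM + 0.5) minus the mean of the 4 libraries (horizontal axis), with one row per gene and genes ordered by role and by level. The dark blue circles of 2×-1 are the leftmost point in 36 of the 41 rows, and in 18 rows the 2× and 4× libraries overlap.

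**Figure D2:**
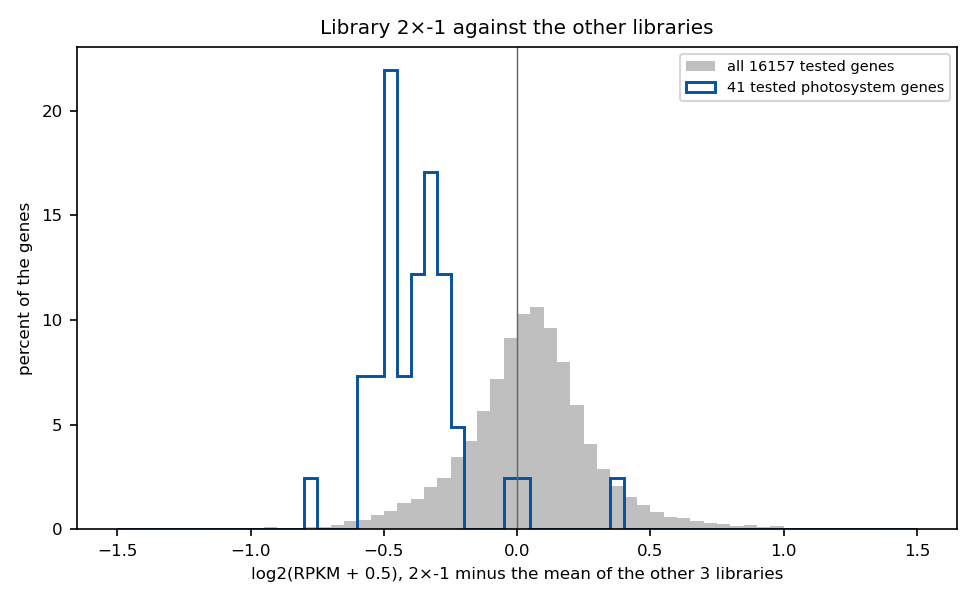
Percent of genes (vertical axis) by the log2 difference between 2×-1 and the mean of the other 3 libraries (horizontal axis), for all 16157 tested genes in grey and the 41 photosystem genes in blue. The median of the photosystem genes is -0.39 and that of all genes is 0.049.

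Markers of leaf mesophyll, the tissue that holds most chloroplasts, were also lowest in 2×-1 when summed. The 12 mesophyll genes (RuBisCO small chain and activase, chloroplast carbonic anhydrase and glycolate oxidase) summed to 8713 RPKM in 2×-1, 10364 in 2×-2, 11560 in 4×-1 and 11991 in 4×-2. The highest of them, a RuBisCO small chain gene (Cs6g18680), had 5868, 7089, 8077 and 8070 RPKM in the same order. One of the 12, a weakly expressed RuBisCO small chain gene (Cs4g03580) with 7.16, 6.81, 3.88 and 3.24 RPKM, was called lower in 4× (adjusted p = 0.0466). In the sum and in Cs6g18680, which made up most of it, 2×-1 was the lowest library, and 2×-2 was below both 4× libraries. The median log2 difference of the 12 genes was 0.20, and 0.16 without 2×-1. The 41 photosystem genes had 0.25 and 0.036, so the mesophyll difference rested less on 2×-1. Among the other marker lists, the sum of 49 epidermis genes ranged from 2997 RPKM in 4×-2 to 3670 RPKM in 4×-1. That of 24 guard cell genes ranged from 16.2 RPKM in 2×-1 to 19.5 RPKM in 4×-2. That of 215 vascular genes ranged from 6489 RPKM in 2×-2 to 7046 RPKM in 4×-2. The guard cell sum was thus also lowest in 2×-1, whereas the epidermis and vascular sums were not. Values above 0 were found for 12 of the 12 mesophyll genes, 38 of the epidermis genes, 20 of the guard cell genes and 183 of the vascular genes. These lists are broad, because descriptions name many relatives. In pooled leaf tissue fewer mesophyll cells and less RNA per cell cannot be told apart, and the part of either in the values of 2×-1 was not tested.

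Antenna genes were the most abundant group. They summed to 9236 RPKM in 2×-1, 11396 in 2×-2, 9730 in 4×-1 and 9976 in 4×-2, so the 4× libraries lay between the 2× libraries. Of the 13 tested antenna genes 12 had a fitted difference above 0 and 1 below, with a median of 0.23, which was 0.012 without 2×-1. In 6 genes both 4× libraries lay above both 2× libraries.

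A single gene carried more than all other antenna genes together. Cs2g03780, described as a type I protein of photosystem II (the Lhcb1 type, which with Lhcb2 and Lhcb3 builds the trimers of the major antenna LHCII), had 5886 RPKM in 2×-1, 7014 in 2×-2, 5334 in 4×-1 and 5558 in 4×-2. Both 4× values were below both 2× values, and the 2× libraries differed from each other by more than 2×-1 did from 4×-2. The mean was 6450 ± 798 RPKM in 2× and 5446 ± 158 RPKM in 4× (SD, n = 2), with a log2 difference of -0.24 (SE 0.293, adjusted p = 0.814). Cs2g03780 was the only tested antenna gene with a difference below 0 when all 4 libraries were fitted. Without 2×-1 its log2 difference was -0.37. Its share of antenna RPKM was 63.7% in 2×-1, 61.6% in 2×-2, 54.8% in 4×-1 and 55.7% in 4×-2. The Lhcb1 type is usually encoded by several near-identical genes in plants, and only uniquely aligned reads entered the table, so the split of reads over such copies is uncertain.

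The remaining genes of the photosystem II antenna had lower levels. The Lhcb2 type gene Cs2g19680 had 426, 536, 542 and 502 RPKM in 2×-1, 2×-2, 4×-1 and 4×-2, and the Lhcb3 type gene Cs1g06360 had 131, 162, 159 and 165 RPKM. In both, 2×-2 was within or next to the 4× values and only 2×-1 was apart. The minor antenna proteins CP26, CP29 and CP24 connect the LHCII trimers with the core. The CP26 gene Cs5g18620 had 376, 519, 532 and 520 RPKM. The CP24 gene orange1.1t03504 had 216, 300, 280 and 265 RPKM, so its highest value was in 2×-2. Both CP29 genes were expressed, Cs7g31190 at 292, 410, 429 and 399 RPKM and Cs6g08260 at 136, 177, 181 and 182 RPKM, and their ratio stayed between 2.15 and 2.37 in the 4 libraries. An LHCII gene of unassigned type (Cs9g17350) had 38.5, 46.0, 46.1 and 46.9 RPKM. For the 7 genes of this antenna other than Cs2g03780 the log2 differences ranged from 0.096 in CP24 to 0.26 in Cs7g31190, and without 2×-1 from -0.14 in CP24 to 0.038 in Cs6g08260.

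In the antenna of photosystem I the most abundant gene was Cs7g10740, described as a type II protein. It had 736 RPKM in 2×-1, 885 in 2×-2, 918 in 4×-1 and 989 in 4×-2, with a log2 difference of 0.24 (SE 0.163, adjusted p = 0.597). The libraries of the 2 groups did not overlap, although the step from 2×-1 to 2×-2 was larger than that from 2×-2 to 4×-1. The second type II gene, Cs4g07150, had 33.8, 47.5, 50.1 and 48.6 RPKM, so that the pair differed by 18.3 to 21.8 times in level within a library. Cs3g06180, described as chlorophyll a-b binding protein 8, had 651, 911, 895 and 927 RPKM and a log2 difference of 0.24 (SE 0.185, adjusted p = 0.650), which was 0.00048 without 2×-1. Cs7g27290, named after Lhca6, had 308, 382, 355 and 363 RPKM, with both 4× libraries below 2×-2.

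Cs3g23580, an antenna gene with the name protein P4 and one of the least expressed, differed from this pattern. It had 5.52 RPKM in 2×-1, 6.38 in 2×-2, 8.91 in 4×-1 and 8.91 in 4×-2, from 190, 225, 308 and 292 reads. Here both 2× libraries lay well below both 4× libraries, and leaving out 2×-1 moved the difference little. The log2 difference was 0.55 (SE 0.153, adjusted p = 0.135), and 0.45 without 2×-1. With voom the gene passed the threshold (adjusted p = 0.0312), and over all alternatives its adjusted p ranged from 0.0312 to 0.440. Of the antenna genes below the level for the test, Cs5g10800 had 21 and 18 reads in 2× and 8 and 10 reads in 4×, and Cs1g14270 had 1 read in each 4× library and 0 in 2×.

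**Figure D3:**
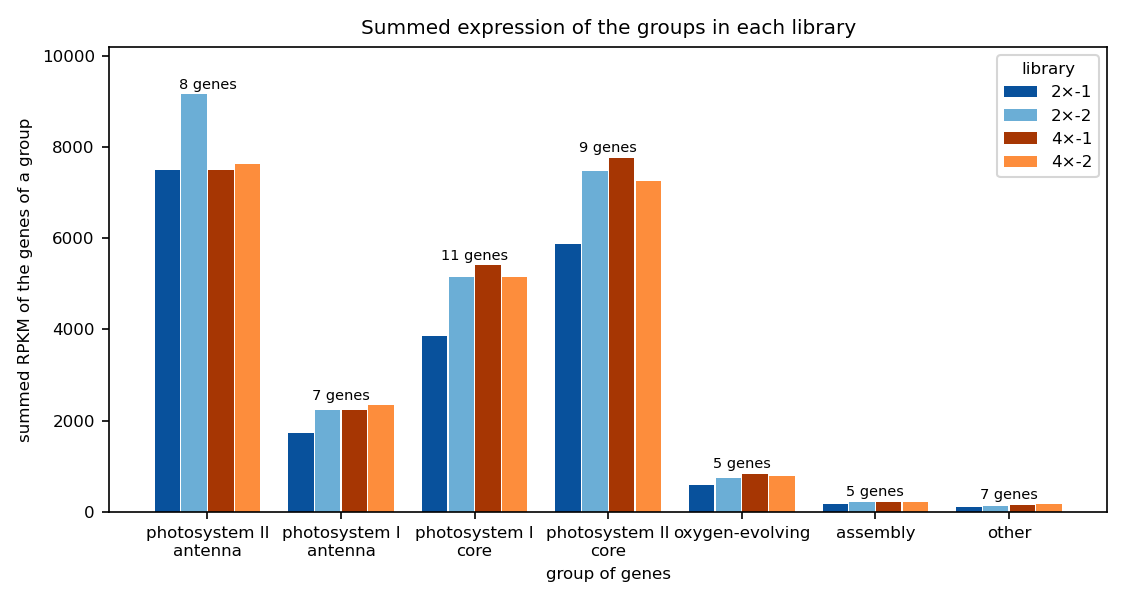
Summed RPKM (vertical axis) of the genes of each group in the 4 libraries, with the photosystem II and photosystem I antenna shown apart and the number of genes above the bars. The bar of 2×-1 is the lowest in each group, although in the photosystem II antenna it is level with both 4× libraries and 2×-2 alone is higher.

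The core of photosystem I summed to 3867 RPKM in 2×-1, 5152 in 2×-2, 5409 in 4×-1 and 5144 in 4×-2. Of 9 tested genes 8 had a fitted difference above 0, with a median of 0.25 over the 9, and 0.024 without 2×-1. The most abundant genes encoded small subunits of the complex. The gene of PsaH (Cs1g15170), at which LHCII can dock, had 782, 1115, 1105 and 998 RPKM, and that of PsaK (Cs2g09520), at the antenna side, had 752, 974, 999 and 904 RPKM. Both 4×-2 values were below 2×-2, and the log2 differences of 0.17 (SE 0.197, adjusted p = 0.798) and 0.15 (SE 0.176, adjusted p = 0.800) turned to -0.086 and -0.036 without 2×-1.

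The other small subunits of photosystem I had fitted differences between 0.20 and 0.36. The gene of PsaG (Cs4g07650), which binds the antenna, had 548, 710, 743 and 765 RPKM, with a log2 difference of 0.27 (SE 0.164, adjusted p = 0.536). The gene of PsaF (Cs2g10620), where plastocyanin docks, had 532, 660, 767 and 754 RPKM, with a log2 difference of 0.36 (SE 0.156, adjusted p = 0.358) and of 0.20 without 2×-1. In PsaF the 4× libraries differed from each other by less than either differed from 2×-2. PsaD and PsaE form the docking site of ferredoxin on the stromal side. Both PsaD genes had higher values in each 4× library than in each 2× library, Cs9g06660 with 324, 383, 413 and 425 RPKM and Cs5g31180 with 229, 299, 330 and 340 RPKM, and the first was 1.25 to 1.42 times the second. The PsaE gene Cs5g34450 had 221, 328, 323 and 296 RPKM, so its highest value was in 2×-2, and the PsaL gene Cs2g18170 had 476, 679, 725 and 658 RPKM.

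A gene described as PsaA (Cs1g09310), the large chlorophyll protein of the photosystem I reaction center, was listed at 2.95, 4.32, 3.67 and 2.71 RPKM. These values came from 8, 12, 10 and 7 reads, so no difference could be detected at this depth (log2 difference -0.16, SE 0.237, adjusted p = 0.859). It was the only tested gene of this core whose lowest value was not in 2×-1. The other core genes listed with high values are encoded in the nucleus in plants, whereas PsaA is normally a plastid gene.

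The core group of photosystem II summed to 5871 RPKM in 2×-1, 7471 in 2×-2, 7766 in 4×-1 and 7268 in 4×-2. Of 8 tested genes 6 had a fitted difference above 0 and 2 below, with a median of 0.21, and of 0.075 without 2×-1. The highest of the group was the gene of PsbS (Cs3g19650), placed here by its description although the protein is a relative of the antenna proteins that switches on the harmless release of excess light energy. It had 2321 RPKM in 2×-1, 3204 in 2×-2, 2955 in 4×-1 and 2721 in 4×-2. Both 4× libraries lay between the 2× libraries, and the log2 difference was 0.056 (SE 0.243, adjusted p = 0.953).

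Among the small subunits of photosystem II, the groups were apart, with both 4× libraries higher, for PsbR, PsbW and PsbY, and overlapped for PsbT. The gene of PsbR (Cs5g15450), needed for the binding of oxygen-evolving proteins, had 1344, 1596, 1652 and 1620 RPKM, with a log2 difference of 0.16 (SE 0.186, adjusted p = 0.800). Both PsbW genes, whose protein stabilizes the assembly of photosystem II with its antenna, had higher values in each 4× than in each 2× library. Cs8g13660 had 879, 934, 1219 and 1073 RPKM, with a log2 difference of 0.34 (SE 0.162, adjusted p = 0.422), and Cs5g30320 had 659, 897, 1058 and 993 RPKM, with a log2 difference of 0.41 (SE 0.182, adjusted p = 0.367). Without 2×-1 the differences of these PsbW genes were 0.29 and 0.19. In Cs8g13660 the 2× libraries were closer to each other than in Cs5g30320, and its ratio to Cs5g30320 ranged from 1.04 in 2×-2 to 1.33 in 2×-1. The PsbY gene Cs7g09900 had 331, 436, 471 and 483 RPKM, and the PsbT type gene Cs2g30400 had 229, 285, 337 and 282 RPKM.

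Both genes described as D2, the reaction center protein of photosystem II encoded by psbD, went the other way. Cs1g18810 had 46.5 RPKM in 2×-1, 44.2 in 2×-2, 27.5 in 4×-1 and 37.6 in 4×-2, from 108, 105, 64 and 83 reads. Cs3g06200 had 60.4, 77.0, 46.1 and 59.0 RPKM in the same order, from 529, 690, 405 and 492 reads. In both genes each 4× library was below each 2× library and 4×-1 was the lowest library, while in Cs3g06200 the values of 2×-1 and 4×-2 were close to each other.

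Cs1g18810 had a mean of 45.3 ± 1.65 RPKM in 2× and 32.5 ± 7.15 RPKM in 4× (SD, n = 2), with a log2 difference of -0.49 (SE 0.145, adjusted p = 0.157). Cs3g06200 had 68.7 ± 11.7 and 52.6 ± 9.18 RPKM (SD, n = 2), with a log2 difference of -0.38 (SE 0.151, adjusted p = 0.302). These were the lowest differences of all 41 genes, and unlike those of most other genes they were about as large or larger without 2×-1, at -0.45 and -0.56. Cs1g18810 passed the threshold when 4×-2 was left out (log2 difference -0.71, adjusted p = 0.0361), whereas without 4×-1 its difference was -0.27 (adjusted p = 0.446). The difference of Cs3g06200 was -0.21 both without 4×-1 and without 2×-2. For Cs1g18810, over all alternatives, the adjusted p ranged from 0.00767 to 0.446. The RNA had been enriched by poly(A), which most plastid transcripts lack, and psbD is normally a plastid gene. Whether reads at both loci came from plastid RNA or from copies in the nuclear genome, and whether the loci share reads, was not tested.

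The oxygen-evolving proteins PsbO, PsbP and PsbQ sit on the lumen side of photosystem II, where PsbO stabilizes the manganese cluster and PsbP and PsbQ hold its calcium and chloride. This group summed to 593 RPKM in 2×-1, 730 in 2×-2, 832 in 4×-1 and 793 in 4×-2, and all 4 tested genes had a fitted difference above 0 (median 0.30, and 0.11 without 2×-1). The PsbO gene Cs1g23450 had 461, 562, 619 and 593 RPKM, with a log2 difference of 0.25 (SE 0.148, adjusted p = 0.529). Its 4× values lay above both 2× values, but the distance between the 2× libraries exceeded that between 2×-2 and either 4× library.

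Of the 3 genes described as PsbQ, Cs2g07330 came nearest to the threshold of all 41 photosystem genes. It had 96.1 RPKM in 2×-1, 110 in 2×-2, 156 in 4×-1 and 144 in 4×-2, from 1228, 1433, 2002 and 1751 reads. Both 4× libraries lay above both 2× libraries, and the distance between the groups was larger than the spread within either. The mean was 103 ± 9.51 RPKM in 2× and 150 ± 8.51 RPKM in 4× (SD, n = 2), with a log2 difference of 0.54 (SE 0.114, adjusted p = 0.0554) and of 0.45 without 2×-1. It passed the threshold when the filter was raised to a mean of 3 RPKM (adjusted p = 0.0445) and with voom (adjusted p = 0.0198). Over all alternatives its adjusted p ranged from 0.00147 to 0.277, and its log2 difference from 0.45 to 0.64.

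The other PsbQ genes did not share this pattern. Cs7g03580 had 29.5, 51.6, 49.1 and 50.1 RPKM, so 3 libraries were alike and 2×-1 was the lowest, and its log2 difference of 0.34 (SE 0.209, adjusted p = 0.546) was -0.059 without 2×-1. Relative to Cs2g07330 it had 0.307 times the level in 2×-1, 0.472 in 2×-2, 0.315 in 4×-1 and 0.348 in 4×-2. Cs6g17250 was expressed at 5.77, 6.56, 7.82 and 6.46 RPKM, with overlapping groups.

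**Figure D4:**
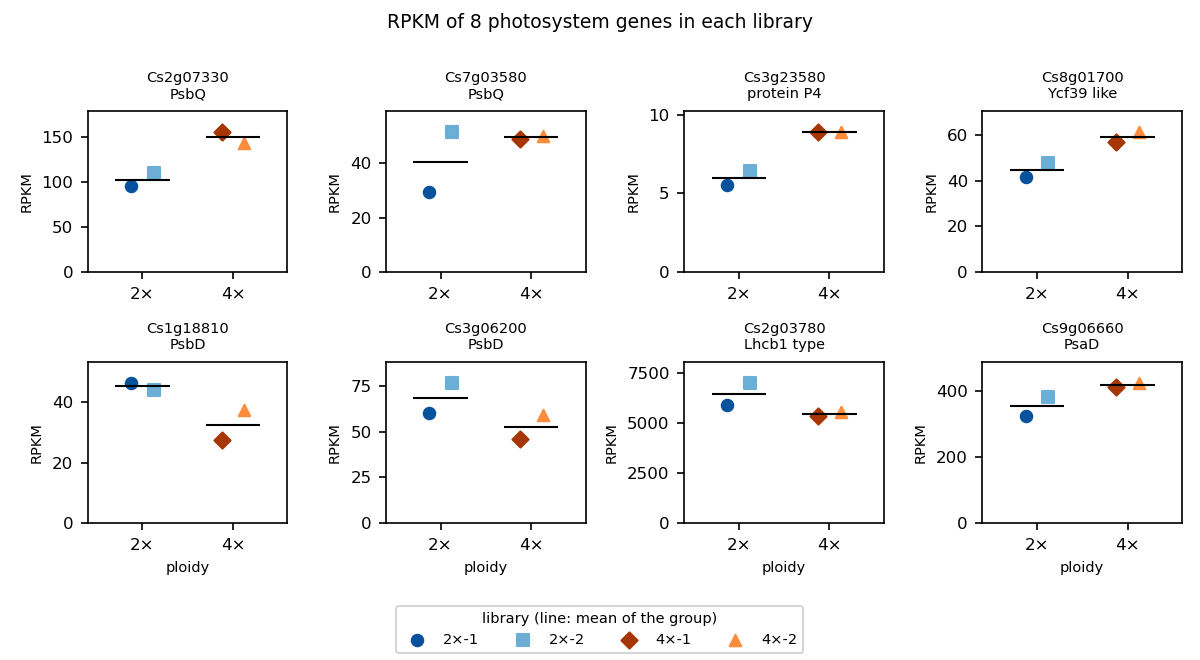
RPKM (vertical axes, each from 0) of 8 photosystem genes in the 2× and 4× libraries, with a line at the mean of each group. In Cs2g07330, Cs3g23580 and Cs8g01700 both 4× libraries are above both 2× libraries, in Cs1g18810, Cs3g06200 and Cs2g03780 both are below, and in Cs7g03580 only 2×-1 stands apart.

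Of the 5 genes of assembly and stability factors 2 had values above 0. The HCF136 gene Cs7g13970, whose protein is needed for an early step in the assembly of the photosystem II reaction center in *Arabidopsis*, had 71.8 RPKM in 2×-1, 94.9 in 2×-2, 92.5 in 4×-1 and 85.2 in 4×-2. The gene of Psb28 (Cs5g29040), a factor that binds photosystem II during assembly, had 92.9, 121, 125 and 119 RPKM. In both genes the groups overlapped and 2×-1 alone was low. Their log2 differences were 0.10 (SE 0.138, adjusted p = 0.831) and 0.20 (SE 0.134, adjusted p = 0.585), and without 2×-1 they were -0.096 and 0.014.

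The 5 tested genes outside these roles had the largest median difference of the 6 groups, 0.40, which was 0.26 without 2×-1, and 4 of them were among the 9 genes with higher values at an unadjusted p below 0.05. All were expressed at low or moderate levels. Cs8g01700, described as a chaperon-like protein for quinone binding in photosystem II and similar to Ycf39, had 41.7 RPKM in 2×-1, 47.8 in 2×-2, 56.9 in 4×-1 and 61.5 in 4×-2. Both 4× libraries were higher, with a log2 difference of 0.40 (SE 0.113, adjusted p = 0.135) and of 0.30 without 2×-1. Cs4g12280, described as an oxygen-evolving complex protein of the PsbQ kind, had 5.24, 4.26, 6.79 and 8.67 RPKM from 66, 55, 86 and 104 reads, and it was the only tested gene in which 2×-2 was the lowest library. Its log2 difference of 0.65 (SE 0.184, adjusted p = 0.141) was the largest of all 41 genes, and 0.78 without 2×-1.

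Proteins with a PsbP domain are relatives of PsbP in the thylakoid lumen. The gene Cs3g12630 had 11.2, 14.1, 17.9 and 15.9 RPKM, with a log2 difference of 0.42 (SE 0.146, adjusted p = 0.237), and Cs1g08260 had 6.40, 9.60, 9.05 and 10.8 RPKM with overlapping groups. The gene orange1.1t00831, described both as a possible psbZ and as a thylakoid lumenal protein, had 41.5, 57.9, 62.1 and 64.9 RPKM, with a log2 difference of 0.37 (SE 0.148, adjusted p = 0.315) and of 0.13 without 2×-1. Without 2×-1 the difference of Cs3g12630 was 0.26 and that of Cs1g08260 was 0.040.

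**Figure D5:**
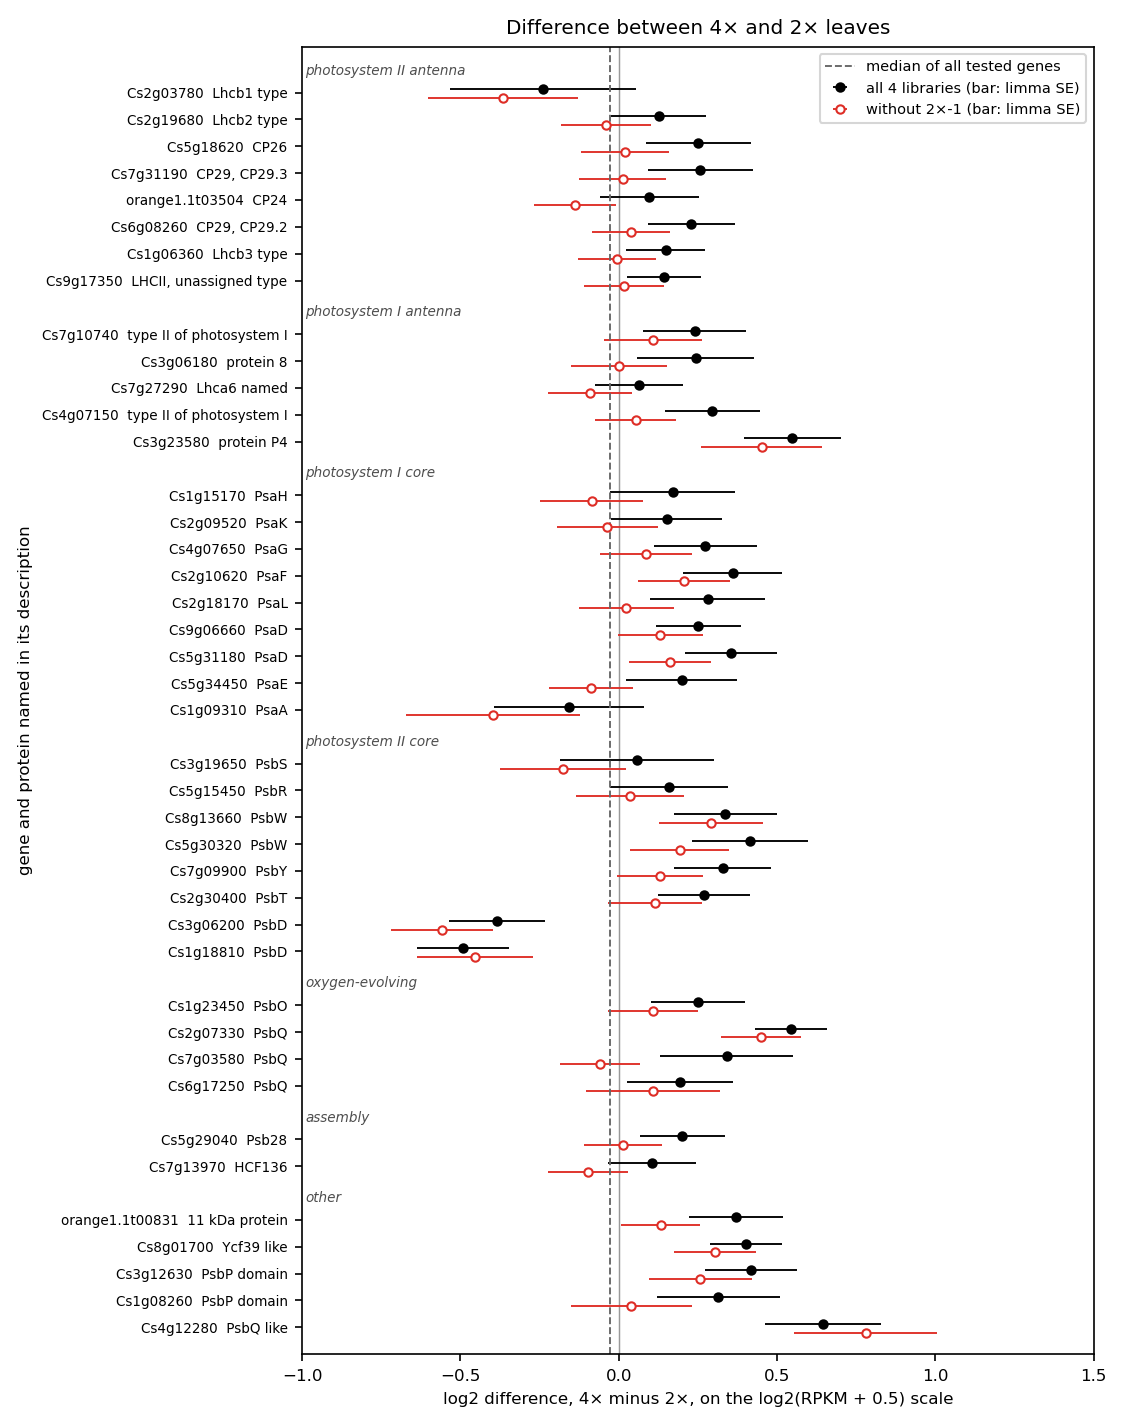
Log2 difference between 4× and 2× (horizontal axis) of the 41 tested photosystem genes, one row per gene, in the fit to all 4 libraries (black) and without 2×-1 (red, open), with bars for the limma SE and a dashed line at the median of all tested genes. Most open points lie near 0, with a median of 0.036. The open points furthest above 0 are Cs4g12280 (0.78), Cs3g23580 (0.45), Cs2g07330 (0.45) and Cs8g01700 (0.30). Those furthest below 0 are the PsbD genes Cs3g06200 (-0.56) and Cs1g18810 (-0.45), then Cs1g09310 (-0.40) and Cs2g03780 (-0.37).

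Antenna and core were compared within libraries, where a shift that all photosystem genes share drops out. The summed RPKM of antenna genes was 2.39 times that of photosystem I core genes in 2×-1, 2.21 times in 2×-2, 1.80 times in 4×-1 and 1.94 times in 4×-2. Relative to the photosystem II core group it was 1.57, 1.53, 1.25 and 1.37 times in the same order. Both ratios were lower in each 4× library than in each 2× library, and 2×-1 was close to 2×-2. The smallest two-sided p that an exact permutation test of 2 libraries against 2 can give is 0.333, and no test was made over these sums and ratios.

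Without Cs2g03780 the ratio of antenna to photosystem I core was 0.867 in 2×-1, 0.851 in 2×-2, 0.813 in 4×-1 and 0.859 in 4×-2, and that to the photosystem II core group was 0.571, 0.587, 0.566 and 0.608. The 2× and 4× libraries overlapped in both ratios once this gene was left out. With the PsaA and D2 genes also left out and both cores added up, the ratio was 0.348 in 2×-1, 0.351 in 2×-2, 0.336 in 4×-1 and 0.359 in 4×-2, and the groups overlapped. Photosystem II core genes summed to 1.52, 1.45, 1.44 and 1.41 times the photosystem I core genes. Here both 4× libraries lay below both 2× libraries, with 4×-1 close to 2×-2. Oxygen-evolving genes summed to 0.101, 0.0977, 0.107 and 0.109 times the photosystem II core genes, with both 4× libraries above both 2× libraries. These ratios varied far less than the sums themselves, which for the photosystem I core ranged from 3867 to 5409 RPKM.

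Genes of the electron transport chain between and behind the photosystems, and of the ATP synthase, were also mostly lowest in 2×-1. Of 18 such genes with chloroplast descriptions 16 were tested, and none was called in either direction. At an unadjusted p below 0.05, 3 were higher and 3 lower, where 5.14% and 8.16% of all genes met the same criterion. The fitted difference was above 0 for 13 and below 0 for 3, with a median of 0.25 and of 0.084 without 2×-1, and 2×-1 was the lowest library in 12. Plastocyanin (Cs3g26730), which carries electrons to photosystem I, had 669, 930, 957 and 944 RPKM. The leaf type ferredoxin-NADP reductase (Cs1g25510) had 789, 1025, 1116 and 1099 RPKM, and the root type enzyme (Cs2g09790), which is known from tissues without photosynthesis, had 86.3, 71.2, 55.9 and 54.9 RPKM (log2 difference -0.50, SE 0.118, adjusted p = 0.085). Thus the leaf type gene was lowest in 2×-1, where the root type gene was highest. The other genes of the list lower at an unadjusted p below 0.05 encode ferredoxins. They were Cs8g14960 (log2 difference -0.68, SE 0.161, adjusted p = 0.084) and Cs7g20350 (log2 difference -0.44, SE 0.139, adjusted p = 0.180). Ferredoxin genes were also among the 3 higher ones, Cs3g03680 (log2 difference 0.52, SE 0.148, adjusted p = 0.147) and Cs9g06950 (log2 difference 0.53, SE 0.158, adjusted p = 0.160). The ferredoxin gene with the highest values, Cs3g03670, had 3428, 4609, 5384 and 4636 RPKM, with 4×-2 close to 2×-2. Ferredoxin genes thus went both ways.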

How the data were processed

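Leaf RNA-seq libraries of 2× and 4× were grouped by the ploidy and replicate in the sample labels. The authors deposited RPKM per gene and library. For these values reads had been mapped to the sweet orange genome with TopHat2 2.0.9 and Bowtie2 2.0.6, and reads with a unique position were kept. HTSeq 0.5.4p3 is also named in the submitters' processing notes. For the genome version, annotation and strand setting, nothing is given in the sources used here. Because the reads came from another species than the genome, values of diverged genes and of near-identical copies are less certain.

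Genes were selected by the words chlorophyll a-b binding, photosystem and oxygen-evolving enhancer in their descriptions, from which their roles were also read. By hand, 5 genes were placed outside the named roles. Members, lists and alternatives were chosen with earlier results of these data known, and the electron transport list was trimmed to chloroplast names after the descriptions were read. Genes given with their test were the 3 with the highest mean in each role, the 5 largest increases, the 4 genes with a fitted decrease (the rule allowed 5) and the 5 with the smallest p, 23 in all. Test values of PsaF, of a root type ferredoxin-NADP reductase, of the ferredoxin genes named and of a RuBisCO small chain gene were added after their values were seen.

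Values were transformed to log2(RPKM + 0.5), so differences of genes with low RPKM are understated. A filter kept the 16157 genes whose mean over the libraries reached 1 RPKM. Tests used limma 3.58.1 under R 4.3.3 with linear models, a variance trend and two-sided p-values, adjusted after Benjamini and Hochberg over all these genes. A call was an adjusted p below 0.05. The study had tested counts, whereas the table holds RPKM. Reads behind the values were recovered from the steps in RPKM, which gave whole reads (tolerance 0.001) for 100% of 24073 genes above 0, up to a factor shared by the 4 values of a gene. Replicates of a ploidy differed by more than sampling noise (chi-square over degrees of freedom 6.21 for 2× and 4.67 for 4×), and all 4 libraries were kept. Each SE and p rests on the spread between 2 pools per ploidy, moderated toward the spread of genes of similar level. An SE is therefore not the replicate spread of that gene alone. For Cs2g03780 it was 0.293 in the main fit, 0.177 with robust variances and 0.146 with voom.

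There were 13 alternatives. They were pseudocounts of 0.1 and 1, no filter, a filter at 3 RPKM, median-of-ratios scaling, robust variances, a replicate block, the omission of each library, voom on the recovered reads, and a search of the leading description column only. Tables and plots were made in Python 3.11.15 with pandas 2.3.3, numpy 2.4.6 and matplotlib 3.10.9. No reference sequences were used.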

Additional observations from a re-analysis of the deposited data

How the results depend on the processing

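The 224 calls over all genes were 0 without the filter on low values, 404 with voom, 832 with the replicate number as a block, and 77 to 264 with 1 library left out. Among the photosystem genes the 0 calls higher in 4× were 1 with a mean of at least 3 RPKM (Cs2g07330), beside 82 of all 13527 genes. They were 2 with voom (Cs2g07330 and Cs3g23580), beside 141 of all 16157 genes. With the replicate block they were 3 (Cs2g07330, Cs4g12280 and Cs8g01700), beside 322 of all 16157 genes. With no library left out, the 0 calls lower in 4× were 1 with the replicate block (Cs1g18810), beside 510 of all 16157 genes. Without 4×-2 the log2 difference of Cs1g18810 was -0.71, as given above. Replicate numbers did not pair the samples (correlation of the deviations -0.046 over 16157 genes). The median log2 difference of the 41 genes was 0.036 to 0.42 with 1 library left out and stayed within the spread between replicates under the other alternatives. Of the 41 genes 4 had a fitted difference below 0 with all libraries and 14 without 2×-1, beside 8987 and 8479 of all 16157 genes. Among the 23 genes given with their test, the sign turned with 1 library left out for Cs1g09310 (-0.40 to 0.086), Cs1g15170 (-0.086 to 0.43), Cs2g09520 (-0.036 to 0.34), Cs3g19650 (-0.18 to 0.29), Cs7g03580 (-0.059 to 0.74) and Cs7g13970 (-0.096 to 0.30), the last 5 of them without 2×-1, Cs3g19650 also without 4×-1. The cause was not tested. Reading only the leading description column gave the same counts and median. With 2 pools per ploidy, only differences well above the usual SE can pass the threshold, and genes listed at 0 say nothing of their expression.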
